A study of Mus musculus with 8 samples.

Results

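Axon injury and regeneration genes were followed in sorted C low-threshold mechanoreceptors, unmyelinated touch neurons with their cell bodies in sensory ganglia. The set holds 10 genes of the 55573 in the count table, namely Atf3, Sox11, Gadd45a, Gap43, Stmn2, Stmn4, Sprr1a, Ecel1, Flrt3 and Anxa1. They were picked by name, with their levels, their co-variation between libraries and their difference between genotypes already known, so those values are given here as a description. Polyadenylated RNA was sequenced from GFP-positive cells of adult mice that lacked Bhlha9 (KO) or were wild type (WT). Bhlha9 encodes a basic helix-loop-helix transcription factor. Male KO, male WT, female KO and female WT each had 2 libraries, stated to be biological replicates. All 8 libraries came from cells sorted for the same fluorescence, and the allele that carries the GFP and the number of mice per library are not given in the sources used here.

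When a peripheral axon is cut, a sensory neuron turns on a programme that starts with transcription factors such as Atf3, Jun and Sox11. These act with growth cone and cytoskeletal proteins, among them Gap43 and the stathmins, and with small effectors such as Sprr1a to let the axon grow again. In an uninjured ganglion Atf3 and Sprr1a are known to be scarce, while Stmn2 is abundant in most neurons.

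The libraries held between 50919885 and 71956309 counts over genes, and 22013 genes passed the filter on low counts, all 10 injury genes among them. Of these 10, Sprr1a, Ecel1 and Anxa1 passed through their male libraries alone, since no female library had more than 8 counts of any of them. Bhlha9 stood at 0.156 and 0.277 counts scaled to library size (CPM) in male KO libraries, against 151 and 161 CPM in male WT libraries. In female KO libraries it stood at 0.470 and 0.253 CPM, against 140 and 127 CPM in female WT libraries. The C-LTMR marker Th, the enzyme that makes the precursor of dopamine, lay between 2976 and 5359 CPM over all 8 libraries, and the vesicular glutamate transporter Slc17a8 between 30.9 and 55.0 CPM. Replicates of a group differed far beyond counting error, the chi-square of their counts over its degrees of freedom being 287 in male KO, 105 in male WT, 187 in female KO and 136 in female WT.

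Per kilobase of exon, the injury genes covered a wide range in the 4 WT libraries. Stmn2 averaged 828 on the length-scaled unit of transcript abundance (TPM), higher than 99.3% of the tested genes, and kept within 746 to 875 TPM. Atf3 came next with a mean of 125 TPM and a range of 66.2 to 226 TPM. Sprr1a had a mean of 101 TPM, but its WT libraries ran between 0.253 and 396 TPM, so its place next to Atf3 rested on 1 male library. Gap43 averaged 53.9 TPM with a range of 15.7 to 83.0 TPM, and Gadd45a 45.2 TPM with a range of 37.7 to 58.6 TPM. These ranges overlapped with each other, and that of Gap43 overlapped with that of Atf3 while that of Gadd45a lay below it. The other 5 averaged between 2.17 TPM for Stmn4 and 6.21 TPM for Ecel1, near the middle of the tested genes, and their ranges all overlapped. In these bulk samples fewer cells of a type and less RNA per cell cannot be told apart.

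**Figure D1:**
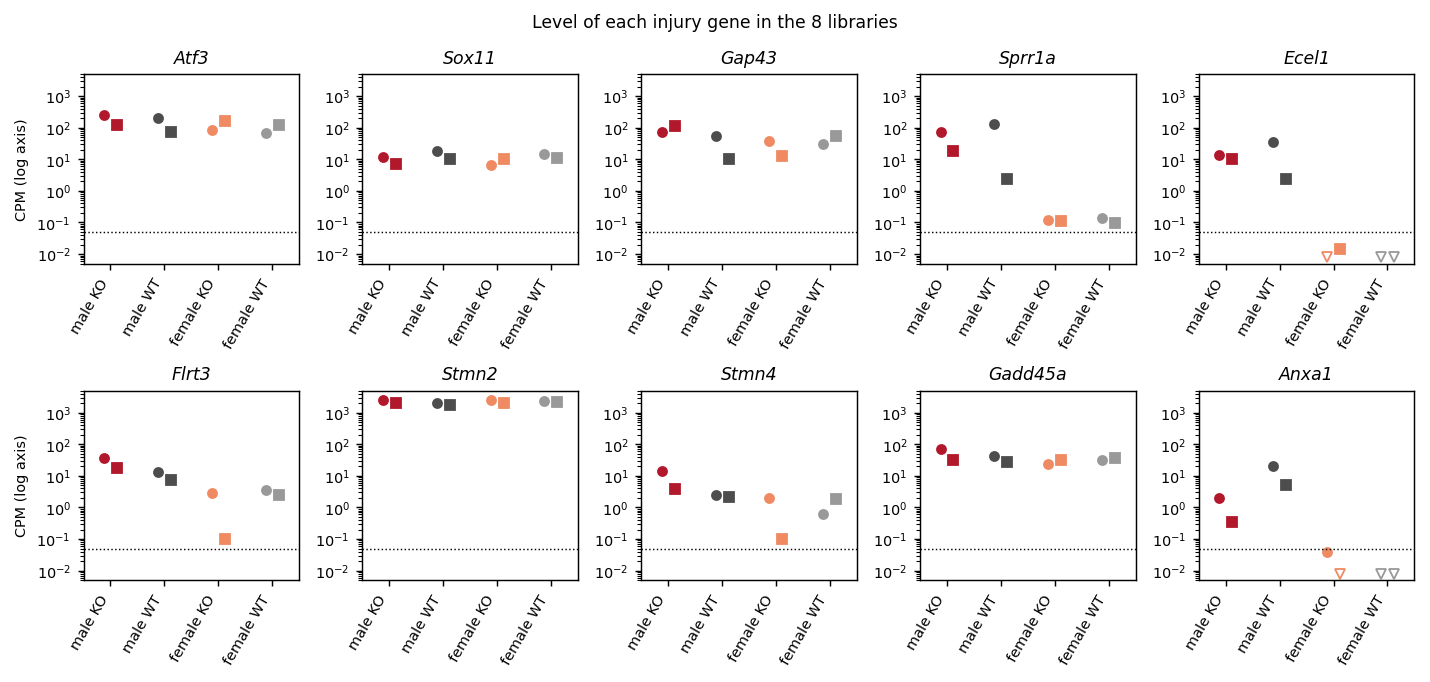
Level of each of the 10 genes in every library, in CPM on a log axis, by group. Circles are replicate 1 and squares replicate 2; open triangles are libraries at 0, and the dotted line is the mean level of 3 counts. Sprr1a, Ecel1, Flrt3, Stmn4 and Anxa1 sit higher in all 4 male libraries than in all 4 female ones, while Stmn2 stays between 1731 and 2449 CPM.

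Atf3 is a stress-induced transcription factor of the ATF and CREB family and the most used marker of an injured sensory neuron. Its gene lies on the minus strand at chr1:191170296-191218039 of GRCm38. It measured 246 and 121 CPM in male KO libraries, against 207 and 74.8 CPM in male WT libraries. In females it measured 82.8 and 162 CPM in KO libraries, against 68.0 and 126 CPM in WT libraries. Every group had a high and a low library, and the groups overlapped in both sexes. The log2 fold change of KO over WT was 0.38 in males and 0.34 in females, each with a standard error (SE) of 0.61. As single libraries were left out it ran between -0.22 and 1.29 in males and between -0.23 and 0.85 in females, so its sign was not stable in either sex. The 250 bases before its RefSeq start, chr1:191183334-191183583 of GRCm38.p6, minus strand, are shown because they hold ACGTCA, a part of the site bound by CREB-type factors, 8 bases before the start; capitals mark it.
Atf3: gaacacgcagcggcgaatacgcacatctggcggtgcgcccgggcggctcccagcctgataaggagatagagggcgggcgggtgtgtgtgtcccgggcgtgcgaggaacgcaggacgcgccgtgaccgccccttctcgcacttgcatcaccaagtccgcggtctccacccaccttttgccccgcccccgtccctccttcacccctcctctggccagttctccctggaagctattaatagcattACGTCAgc
ACGTCA or its reverse complement TGACGT was found in 6.47% of 32851 mouse promoters of that length.

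Sox11, a transcription factor of neuronal development that returns in injured neurons, lies at chr12:27334264-27342574, minus strand. Its level was 11.7 and 7.11 CPM in male KO libraries, against 18.8 and 10.05 CPM in male WT libraries, and these overlapped. In females it was 6.70 and 10.2 CPM in KO libraries, against 15.1 and 11.3 CPM in WT libraries, with both KO libraries below both WT libraries. Its log2 fold change was -0.62 in males and -0.64 in females, each with an SE of 0.47. Across both sexes it came to -0.63 (SE 0.31). Sox11 averaged 3.74 TPM in WT libraries.

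Gadd45a, a stress protein that restrains the cell cycle and takes part in DNA repair, lies at chr6:67035096-67037457, minus strand. It shares 337 exon bases with the antisense RNA E230016M11Rik, and reads of the pair cannot be told apart there because strand was not used in counting. It had 70.1 and 32.8 CPM in male KO libraries, against 44.0 and 28.0 CPM in male WT libraries. Female KO libraries had 23.1 and 32.3 CPM, against 31.7 and 37.8 CPM in female WT libraries. The groups overlapped in both sexes, and 1 male KO library stood above the other 7. On the log2 scale KO over WT was 0.52 in males and -0.33 in females (SE 0.42 each), and the value in males ran between -0.13, without the high KO library, and 0.94 as single libraries were left out.

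Gap43, a membrane protein of growth cones, lies at chr16:42248442-42340651, minus strand. It reached 74.8 and 115.7 CPM in male KO libraries, against 53.8 and 9.90 CPM in male WT libraries, so both KO libraries were above both WT libraries. In females the KO libraries had 37.1 and 12.4 CPM, against 30.3 and 53.3 CPM in WT libraries, and these overlapped. Group means were 95.2 ± 28.9 CPM in male KO, 31.8 ± 31.0 CPM in male WT, 24.7 ± 17.4 CPM in female KO and 41.8 ± 16.3 CPM in female WT (SD, n = 2 each). KO over WT came to 1.58 (SE 0.84) on the log2 scale in males and -0.76 (SE 0.83) in females. The value in males was 3.26 without the higher male WT library and 0.79 without the lower one.

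Stmn2 and Stmn4 are stathmins, proteins that bind tubulin and favour the disassembly of microtubules; Stmn2 is needed for regrowth of motor axons. Stmn2 (chr3:8509360-8561606, plus strand) had 2449 and 2047 CPM in male KO libraries, against 1998 and 1731 CPM in male WT libraries. Female KO libraries held 2432 and 2043 CPM, against 2335 and 2224 CPM in female WT libraries. Its highest library exceeded its lowest by 1.41 times, the smallest such ratio of the 10, and its log2 fold change was 0.27 in males and -0.03 in females (SE 0.17 each). Both male KO libraries lay above both male WT libraries, and the female groups overlapped.

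Stmn4 (chr14:66344296-66361680, plus strand) was scarce and uneven. Its level was 14.2 and 3.73 CPM in male KO libraries, against 2.54 and 2.22 CPM in male WT libraries. In females it was 2.06 and 0.0983 CPM in KO libraries, against 0.618 and 1.87 CPM in WT libraries. Both male KO libraries were above both male WT libraries, female groups overlapped, and 1 female KO library held only 7 counts. The log2 fold change was 1.91 (SE 1.36) in males and -0.21 (SE 1.32) in females, and neither was steady as single libraries were left out. In males it was 0.65 without the higher KO library and at most 2.55. In females it was -3.63 with only the library of 7 counts left in the KO group, 0.72 without that library and 0.79 without the higher WT library.

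Sprr1a, a small proline-rich protein of the skin barrier that injured sensory neurons make in their axons, lies at chr3:92483952-92485895, minus strand. It had 75.3 and 18.8 CPM in male KO libraries, against 136 and 2.37 CPM in male WT libraries. Female KO libraries had 0.117 and 0.112 CPM, against 0.141 and 0.0951 CPM in female WT libraries, which is 6 to 8 counts in each of the 4. All male libraries were above all female ones, and male WT held both the highest and the lowest male library. The log2 fold change of KO over WT was -0.55 (SE 1.41) in males and -0.03 (SE 2.16) in females. In males it was 4.30 without the higher WT library and as low as -1.87 without the higher KO library. Its promoter is shown because it holds TGAGTCA, the site of AP-1 factors such as Jun and Fos, at 146 and at 116 bases before the RefSeq start, in capitals (chr3:92485882-92486131, GRCm38.p6, minus strand).
Sprr1a: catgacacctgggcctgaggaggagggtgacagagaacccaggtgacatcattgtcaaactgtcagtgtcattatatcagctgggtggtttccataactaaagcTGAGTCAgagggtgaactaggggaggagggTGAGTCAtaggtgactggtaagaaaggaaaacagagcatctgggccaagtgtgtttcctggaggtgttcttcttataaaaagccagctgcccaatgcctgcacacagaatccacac
TGANTCA occurred at least once in 6.75% and at least 2 times in 0.338% of the 32851 promoters. TATAAA, found in 12.4% on either strand, lay 43 bases before the start of Sprr1a.

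Ecel1 is an endopeptidase-like membrane protein known to be induced by nerve injury, at chr1:87147655-87156521, minus strand. Its level was 13.5 and 9.87 CPM in male KO libraries, against 34.5 and 2.37 CPM in male WT libraries, which overlapped. Of the female libraries, 1 KO library had 1 count, and the other KO library and both WT libraries had 0. In males the log2 fold change of KO over WT was -0.66 (SE 1.14), and it was 2.29 without the higher WT library and -1.60 without the lower one. No fold of KO over WT is given for females, where both groups were under the floor of 3 counts, a level of 0.0421 to 0.0587 CPM depending on the library.

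Anxa1, a phospholipid-binding protein that resolves inflammation, lies at chr19:20373428-20390944, minus strand. It measured 2.03 and 0.339 CPM in male KO libraries, against 20.5 and 5.08 CPM in male WT libraries. Both male KO libraries were below both male WT libraries, the reverse of Gap43, Stmn2, Stmn4 and Flrt3. In females 1 KO library had 2 counts, and the other KO library and both WT libraries had 0. The log2 fold change in males was -3.43 (SE 1.42), the largest in size of the 10, and it moved between -5.23 and -2.11 as single libraries were left out.

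Flrt3, a cell adhesion molecule of the fibronectin leucine-rich transmembrane family that is known to rise in injured sensory neurons, lies at chr2:140650914-140671469, minus strand. The gene sits inside Macrod2 on the other strand and shares no exon with it. It had 35.7 and 17.8 CPM in male KO libraries, against 13.1 and 7.15 CPM in male WT libraries, with both KO libraries above both WT libraries. Female KO libraries had 2.92 and 0.0983 CPM, against 3.58 and 2.53 CPM in female WT libraries, and the groups overlapped. Means were 26.8 ± 12.6 CPM in male KO, 10.1 ± 4.22 CPM in male WT, 1.51 ± 1.99 CPM in female KO and 3.06 ± 0.741 CPM in female WT (SD, n = 2 each). The log2 fold change was 1.40 (SE 1.20) in males and -1.03 (SE 1.20) in females, the value in females being -4.93 with only the library of 7 counts left in its KO group and -0.07 without that library. Its promoter is given for contrast with that of Sprr1a, since both genes were higher in males: neither TGANTCA nor ACGTCA is in this window (chr2:140671477-140671726, GRCm38.p6, minus strand), so nothing is in capitals.
Flrt3: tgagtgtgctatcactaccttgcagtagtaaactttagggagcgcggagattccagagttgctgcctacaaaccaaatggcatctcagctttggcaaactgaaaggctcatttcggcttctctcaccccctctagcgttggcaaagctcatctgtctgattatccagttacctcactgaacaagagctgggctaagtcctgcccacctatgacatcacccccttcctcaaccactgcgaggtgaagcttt
Promoters of 7 of the 10 genes were found by symbol in the RefSeq table, and Sprr1a was the only one of the 7 with TGANTCA in these 250 bases.

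**Figure D2:**
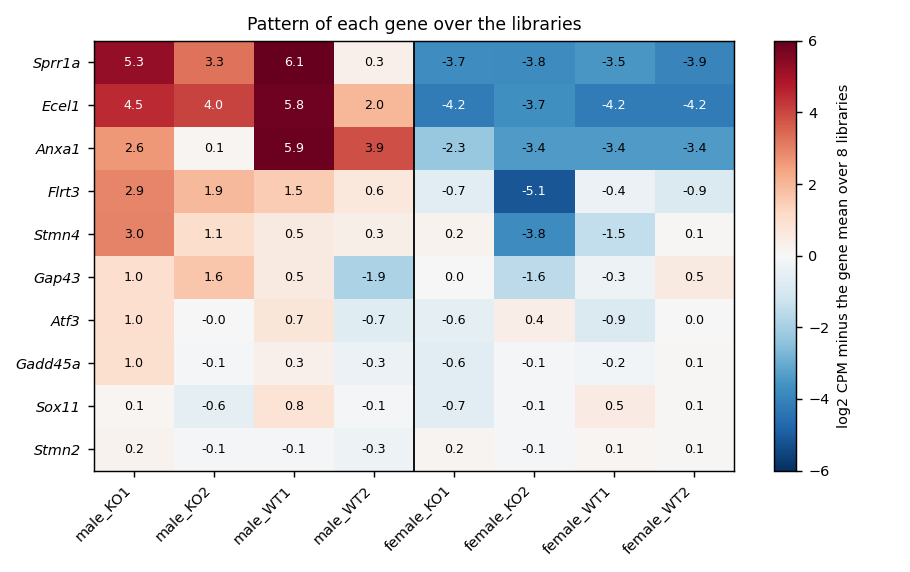
Level of each gene in each library relative to that gene's own mean, as log2 CPM with a prior count of 2 minus the mean over the 8 libraries. Red is above and blue below the gene's mean, and the line parts male from female libraries; Sprr1a spans 6.1 to -3.9 and Stmn2 only 0.2 to -0.3.

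Of the 10 genes, 5 separated fully by sex. Sprr1a, Ecel1, Flrt3, Stmn4 and Anxa1 had all 4 male libraries above all 4 female libraries, a pattern shown by 1.53% of the tested genes. Of the 10, 5 were highest in 1 male KO library, 1 in the other male KO library and 4 in 1 male WT library. The other male WT library held the lowest level of Gap43 and Stmn2. The share of all tested genes with a highest level in a male library was not computed, so nothing is read from these counts. Sprr1a, Ecel1 and Anxa1 also had at most 10 counts in every female library with a male mean of at least 5 CPM, as did 0.0409% of the tested genes. That cut was set after the values of these genes had been seen, so their meeting it is no support. In KO libraries Sprr1a was 410 times higher in males than in females, and in WT libraries 584 times higher, or 20.1 times without the higher male WT library. The KO ratio was between 164 and 656 as single male libraries were left out. Ecel1 had 1418 counts in male KO libraries and 1 in female KO libraries, a ratio of 1415 per library size with an exact 95% counting interval of 254 to 55917. Without the female KO library that held this count, Ecel1 was at least 199-fold higher in males, against the floor of 3 counts. Without the other female KO library the ratio was 824. Anxa1 had 139 counts in male KO libraries and 2 in female KO libraries, a ratio of 69.3 with an interval of 18.8 to 578, and of 20.7 without the higher male library, 124 without the lower one and 29.0 without the female library at 0. Without the female KO library that held the 2 counts, Anxa1 was at least 28.1-fold higher in males. In WT libraries, where females had 0 counts of both, Ecel1 was at least 368-fold and Anxa1 at least 255-fold higher in males, set against the floor of 3 counts per library. Without the higher male WT library these limits were 47.3-fold and 101-fold. These intervals and floors treat every read as a separate draw, though PCR copies were counted, and they leave out the spread between libraries. For Flrt3 the ratio of male to female means was 17.7 in KO libraries and 3.31 in WT libraries, and for Stmn4 it was 8.31 and 1.91 in those genotypes. The KO ratios hung on single libraries, running between 9.17 and 272 for Flrt3 and between 3.46 and 91.1 for Stmn4 as each was left out. Among the remaining 5, the ratio in KO libraries was 3.85 for Gap43 and 1.86 for Gadd45a. As single libraries were left out, it ran between 2.57 and 7.68 for Gap43 and between 1.19 and 2.53 for Gadd45a. The ratio in KO libraries was 1.11 for Sox11, with that of Stmn2 below and that of Atf3 above it, and neither exceeded that of Gadd45a. In WT libraries the ratios of these 5 lay between 0.761 for Gap43 and 1.45 for Atf3.

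Sex was tested across all genes within WT by edgeR's quasi-likelihood F test with Benjamini-Hochberg adjustment. It called 0 of 22013 genes (0.0%), none of the 10 included. The Y-linked gene Ddx3y, at a log2 difference of male over female of 11.03 (SE 0.81), and Xist, at -9.22 (SE 1.46), were not called either. So 0 calls do not show that the sexes were alike. At an unadjusted p under 0.05 there were 977 genes (4.44%). DESeq2 called 140 genes (0.72% of 19452), among them Ddx3y, Xist, Sprr1a, Ecel1 and Anxa1. Sprr1a, Ecel1 and Anxa1 entered these tests only through their male libraries, and the levels were in view when the genes were chosen. No call of a single gene of the 10 is therefore read from them. In edgeR the log2 difference of male over female WT was 9.17 (SE 2.11) for Sprr1a, 1.73 (SE 1.21) for Flrt3 and 0.93 (SE 1.33) for Stmn4. It was 0.54 (SE 0.61) for Atf3, 0.13 (SE 0.47) for Sox11, 0.05 (SE 0.42) for Gadd45a, -0.29 (SE 0.17) for Stmn2 and -0.39 (SE 0.83) for Gap43. The value for Sprr1a ran between 4.31, without the higher male WT library, and 10.19 as single libraries were left out, and those of Atf3, Sox11, Gadd45a and Gap43 changed sign. Of the 10, 5 had both male WT libraries above both female WT libraries, beside 18.8% of all tested genes, and Stmn2 alone had both below, beside 19.6%.

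Genotype was compared within each sex. In males edgeR called 1 of 22013 genes (0.00454%), Bhlha9, whose log2 fold change was -9.47 (SE 0.43), and none of the 10. DESeq2 called 164 genes (0.843%), again none of the 10, and none of the 10 was among the 770 genes (3.5%) at an unadjusted p under 0.05. Of the 10, 6 had a positive and 4 a negative log2 fold change, with a median of 0.32 beside 0.02 over all tested genes. Gap43, Stmn2, Stmn4 and Flrt3 had both KO libraries above both WT libraries (14.5% of all tested genes did), and Anxa1 had both below (14.5% did). The median was 1.59 without the male WT library that was high for Sprr1a and Ecel1, and it lay between -0.18 and 1.59 over all single libraries left out.

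In females edgeR also called only Bhlha9 (0.00454%), with a log2 fold change of -8.56 (SE 0.41). DESeq2 called 165 genes (0.83%) and 838 genes (3.81%) were at an unadjusted p under 0.05, with none of the 10 in either. Of the 8 with a fold, Atf3 alone was positive and 7 were negative, with a median of -0.27 beside 0.0 over all tested genes. The signs of Atf3, Sprr1a, Stmn2 and Stmn4 turned as single libraries were left out. Sox11 was the 1 gene with both KO libraries below both WT libraries (15.1% of all tested genes), and 0 of the 10 had both above (14.2%). Across both sexes edgeR called Bhlha9 alone and DESeq2 52 genes (0.251%), while 783 genes (3.56%) were at an unadjusted p under 0.05, again with none of the 10.

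**Figure D3:**
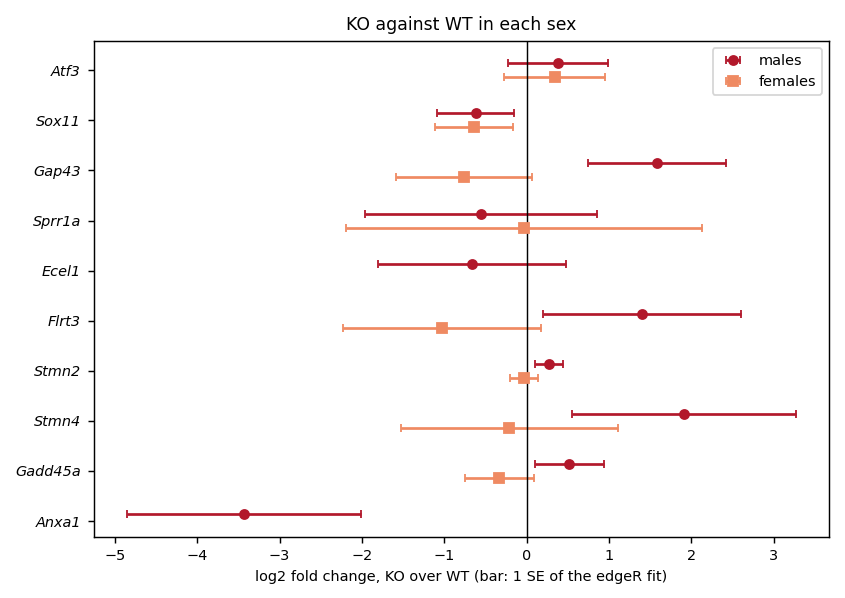
Log2 fold change of KO over WT for each gene in males (dark circles) and in females (light squares), with bars of 1 SE from the edgeR fit. Ecel1 and Anxa1 have no value in females; Gap43 and Flrt3 lie above 0 in males and below 0 in females, and no gene of the 10 passed the test in either sex.

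The difference between the sexes in the KO effect was tested as an interaction. There edgeR called 0 genes (0.0%), 1041 genes (4.73%) were at an unadjusted p under 0.05 and DESeq2 called 217 genes (1.12%), with none of the 10 in any of these. The male minus the female log2 fold change was 2.43 (SE 1.70) for Flrt3, 2.34 (SE 1.18) for Gap43 and 2.13 (SE 1.88) for Stmn4. It was 0.84 (SE 0.59) for Gadd45a and 0.30 (SE 0.24) for Stmn2. For Atf3 it was 0.04 (SE 0.87), with a range of -0.56 to 0.95 as single libraries were left out, and for Sox11 it was 0.03 (SE 0.66), with a range of -0.41 to 0.54. The corresponding ranges were 1.47 to 6.32 for Flrt3, 1.55 to 4.02 for Gap43 and 0.86 to 5.54 for Stmn4.

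The authors' deposited tables listed 150 genes for males and 13 for females, and 0 of the 10 were in either. With a negative log2 fold change for Bhlha9 of -7.40 in males, these tables run as KO over WT. The authors' deposited table for males held 3 other injury genes, Bdnf at 1.23, Jun at 1.18 and Serpinb1a at 1.45 on the log2 scale. That for females held Gal at -1.81 and Adcyap1 at -1.25.

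The 10 genes did not all vary together between libraries, though some pairs did. Values of Sprr1a, Ecel1 and Anxa1 fell into 2 clusters by sex, and no pooled r is given for pairs with any of them. Over the 21 pairs of the other 7 genes the Pearson r of log2 CPM across the 8 libraries had a median of 0.31 and ran between -0.07 and 0.93. After each library was centred on its group mean, r of these pairs ran between -0.24 and 0.90. Centring raised r for some pairs, from 0.49 to 0.82 for Sox11 and Gadd45a and from 0.08 to 0.81 for Flrt3 and Stmn2. It lowered r for others, from 0.18 to -0.24 for Atf3 and Flrt3. The points share their libraries and with them the marker levels given further on, so r is a description with no test. Atf3 and Gadd45a had an r of 0.82 and a Spearman rho of 0.83, with r at 0.84 when the 2 libraries farthest from the median of Atf3 were left out. In all 4 groups the same library was the higher for both genes, and r was 0.90 after each library was centred on its group mean. With 2 libraries per group, centred values mirror each other, so centred r rests on 4 differences and in part repeats that count. The same library was the higher in all 4 groups for Flrt3 and Stmn2 too, at an uncentred r of 0.08. Flrt3 and Stmn4 had an r of 0.93. It was 0.62 without the 2 farthest libraries, 1 male KO and 1 female KO, so part of it rested on those. Both genes had all male libraries above all female ones, so this r also holds the difference between the sexes. After each library was centred on its group mean, r was 0.87. The male WT library that was high for Sprr1a was the highest of the 8 for Ecel1, Anxa1 and Sox11 too, whereas 1 male KO library was highest for Atf3, Flrt3, Stmn2, Stmn4 and Gadd45a.

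Among 11850 other genes with a mean of at least 5 CPM, the pattern most like that of each injury gene over the 8 libraries was sought. Each r is the highest of 11850 over 8 points, so a high value is in part given by the search. Values in parentheses, without the 2 farthest libraries, reuse the same libraries and are no separate support. For Atf3 the nearest gene was Oas1c, with an r of 0.958 (0.94). Gap43 was closest to Mal at 0.964 (0.92), Gadd45a to the tubulin gene Tubb6 at 0.972 (0.92) and Stmn4 to Serpinb1a at 0.984 (0.89). Sox11 was closest to Gm12671 at 0.926 (0.91), Stmn2 to Gm16538 at 0.983 (0.96) and Flrt3 to Enpp4 at 0.945 (0.82). With values in 2 clusters by sex, Sprr1a had as nearest gene Nts, a neuropeptide precursor, Ecel1 had the Y-linked gene Ddx3y and Anxa1 had Ago4. Nts had 10.7 and 5.83 CPM in male KO libraries, against 51.3 and 0.0314 CPM in male WT libraries, and at most 2 counts in any female library.

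A list of 50 other genes known from injured or regenerating sensory neurons gave the wider programme, and 46 of them were tested. In males 25 were higher and 21 lower in KO, with a median log2 fold change of 0.06, and in females 17 were higher and 28 lower of 45 with a fold, with a median of -0.04. In neither sex did edgeR call any of them (0.00454% of all tested genes in each), and DESeq2 called 1 higher in males, Jun (0.843% of all genes it tested), and 1 lower in females, Gal (0.83%). Across both sexes DESeq2 called Il6st (0.251% of all genes), at 0.84 (SE 0.21), and edgeR did not. Jun, the AP-1 subunit that acts with Atf3 after injury, had 245 and 228 CPM in male KO libraries, against 109 and 70.9 CPM in male WT libraries, and a log2 fold change of 1.40 (SE 0.38). In females Jun had 93.7 and 139 CPM in KO libraries, against 101 and 194 CPM in WT libraries, with a log2 fold change of -0.34 (SE 0.37). The most abundant were cytoskeletal and stress genes, with mean TPM over all libraries of 3157 for Stmn3, 2015 for Tubb3, 662 for the small heat shock protein Hspb1, 655 for Stmn1 and 618 for the lectin Lgals1. Vip, Arg1 and Csrp3 had at most 3 counts in every library.

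In males the highest values of KO over WT on that list were those of Npy, a neuropeptide made after injury, at 3.88 (SE 2.78), Serpinb1a, a protease inhibitor, at 3.39 (SE 1.75), and the neurotrophin Bdnf at 1.78 (SE 0.99). Npy rested on 1 KO library, since it had 113 and 0.0308 CPM in male KO libraries, against 7.64 and 0.0314 CPM in male WT libraries. The lowest were Gpr151, a receptor of sensory neurons, at -1.91 (SE 0.81), Nts at -1.64 (SE 2.05) and the transcription factor Myc at -0.91 (SE 0.38). In females the highest were Gpr151 at 1.09 (SE 0.79), the cytokine receptor subunit Il6st at 0.89 (SE 0.32) and the matrix protease Mmp16 at 0.60 (SE 0.68). The lowest were Gal, the galanin precursor, at -5.44 (SE 1.46), Adcyap1, the precursor of the peptide PACAP, at -2.37 (SE 0.88), and the growth factor Csf1 at -0.93 (SE 1.36). Gal had 0.685 and 1.33 CPM in female KO libraries, against 20.1 and 68.6 CPM in female WT libraries, which did not overlap. In males the value was 1.15 (SE 1.20) for Gal and 1.73 (SE 0.86) for Adcyap1, so these and Gpr151 had opposite signs in the sexes. The interaction was 6.59 (SE 1.86) for Gal, 4.10 (SE 1.23) for Adcyap1 and -3.00 (SE 1.13) for Gpr151, and edgeR called none of them, while DESeq2 called Adcyap1 (1.12% of all genes it tested).

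Relatives of the 10 genes were measured beside them, 25 in all with 22 tested. In males 10 were higher and 12 lower in KO, with a median log2 fold change of -0.08, and in females 7 were higher and 15 lower, with a median of -0.11. Neither edgeR nor DESeq2 called any of them. Among the annexins, Anxa5 averaged 3478 TPM, Anxa2 1532 TPM and Anxa6 594 TPM over all libraries, while Anxa1 averaged 5.20 TPM in WT libraries. The stathmins Stmn3 and Stmn1 also exceeded Stmn4. In males the highest values of KO over WT were Fos at 0.97 (SE 0.37), Basp1 at 0.89 (SE 0.43) and Flrt1 at 0.52 (SE 0.69), and the lowest were Fosl2 at -1.12 (SE 0.85), Gadd45g at -0.75 (SE 0.62) and Sox12 at -0.57 (SE 0.35). In females the highest were Ece2 at 0.41 (SE 0.36), Gadd45b at 0.17 (SE 0.87) and Anxa6 at 0.11 (SE 0.27), and the lowest were Flrt1 at -1.12 (SE 0.69), Sox12 at -0.95 (SE 0.35) and Fosl2 at -0.87 (SE 0.85). Sprr1b, Sprr2a1 and Batf were not detected in any library.

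Markers of other cells moved with the same groups, and their part in the results above was not tested. In male KO libraries myelinated afferent markers summed to 2232 and 600.2 CPM, against 442 and 283 CPM in male WT libraries, with all 8 markers higher in KO. The library with 2232 CPM, 1551 CPM of it the neurofilament gene Nefh, was the one highest for Atf3, Flrt3, Stmn2, Stmn4 and Gadd45a. Peptidergic nociceptor markers summed to 1503 and 2081 CPM in male KO libraries, against 697 and 753 CPM in male WT libraries (7 of 8 higher). Nonpeptidergic nociceptor markers summed to 110.2 and 399 CPM in male KO libraries, against 101 and 145 CPM in male WT libraries (5 of 5 tested higher). Glial markers summed to 3940 and 2745 CPM in male KO libraries, against 2607 and 908 CPM in male WT libraries (8 of 10 higher). Apoe alone gave 3035 and 1988 CPM of these sums in male KO libraries, against 1951 and 345 CPM in male WT libraries. C-LTMR markers ran the other way in males, with 5312 and 7386 CPM in KO libraries, against 8152 and 8111 CPM in WT libraries, and 0 of 10 higher in KO.

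Immediate early genes, which stimulation and tissue dissociation are known to induce, summed to 1743 and 1596 CPM in male KO libraries, against 1034 and 719 CPM in male WT libraries, with 10 of 10 higher in KO. In females the same genes summed to 889 and 1279 CPM in KO libraries, against 1052 and 1627 CPM in WT libraries, with 0 of 10 higher in KO. Female glial markers summed to 1214 and 2735 CPM in KO libraries, against 2568 and 3064 CPM in WT libraries. Of these sums Apoe alone gave 727 and 2029 CPM in female KO libraries, against 1909 and 2379 CPM in female WT libraries. Peptidergic markers in females summed to 1565 and 507 CPM in KO libraries, against 1203 and 1932 CPM in WT libraries. Nonpeptidergic markers in females summed to 141 and 56.6 CPM in KO libraries, against 108 and 87.7 CPM in WT libraries. Myelinated markers in females were 564 and 331 CPM in KO libraries, against 365 and 317 CPM in WT libraries. C-LTMR markers in females were 7212 and 9134 CPM in KO libraries, against 8061 and 6905 CPM in WT libraries, with 10 of 10 higher in KO. None of these markers was called by edgeR. DESeq2 called 2 peptidergic, 2 myelinated, 1 glial and 2 immediate early genes higher in male KO (0.843% of all genes it tested). It called 2 peptidergic markers lower in female KO (0.83%). Jun, of the immediate early genes, and Gal, of the peptidergic markers, are the same calls as on the list of other injury genes.

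Immune and stromal markers had the lowest sums of the lists. Immune markers summed to 11.9 to 26.9 CPM over the 8 libraries, with Csf1r at 11.8 to 25.4 CPM the bulk of it. Ptprc was at 0 in all but 1 library, and Cd68 and Aif1 were below 1 CPM throughout. Lyz2, a lysozyme of myeloid cells, was at 0 in both male KO libraries, against 1.78 and 8.49 CPM in male WT libraries, and at 0 in all 4 female libraries. Cd74, of antigen-presenting cells, had 4.16 and 0 CPM in male KO libraries, against 7.20 and 0 CPM in male WT libraries, and was at 0 in all 4 female libraries. Vascular and fibroblast markers summed to 58.7 and 10.7 CPM in male KO libraries, against 4.54 and 7.48 CPM in male WT libraries. In females they summed to 6.38 and 5.46 CPM in KO libraries, against 29.9 and 48.7 CPM in WT libraries. For KO against WT, DESeq2 called Lyz2 lower in males (0.843% of all genes it tested). In females it called Dcn and Col1a1 lower (0.83%), Col1a1 having at most 4 counts in any female library. Between the sexes in WT, where Sprr1a, Ecel1 and Anxa1 were higher in males, 4 of 6 tested immune markers were also higher in males. DESeq2 called 2 of the 6 (0.72% of all genes it tested), Lyz2 and Cd74, which passed the filter through male libraries alone. The 2 lower in males were Csf1r at -0.34 (SE 0.42) and Mrc1 at -0.74 (SE 1.70). Of the 4 higher, Cd68 and Aif1 had counts in only 1 male WT library, the lower one for Sprr1a, Ecel1 and Anxa1. Lyz2 was also higher in that library, so these markers and those genes ran in opposite order between the male WT libraries. Cd74 had its counts in the male WT library that was higher for those genes. The summed immune markers overlapped, at 25.8 and 22.8 CPM in male WT libraries, against 26.9 and 11.9 CPM in female WT libraries. Glial markers summed to 2607 and 908 CPM in male libraries, against 2568 and 3064 CPM in female libraries, with 8 of 10 lower in males. Peptidergic markers were lower in males for 8 of 8 and immediate early genes for 10 of 10. DESeq2 called 1 gene of each of these 3 lists lower in males, and edgeR called none of any marker list.

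**Figure D4:**
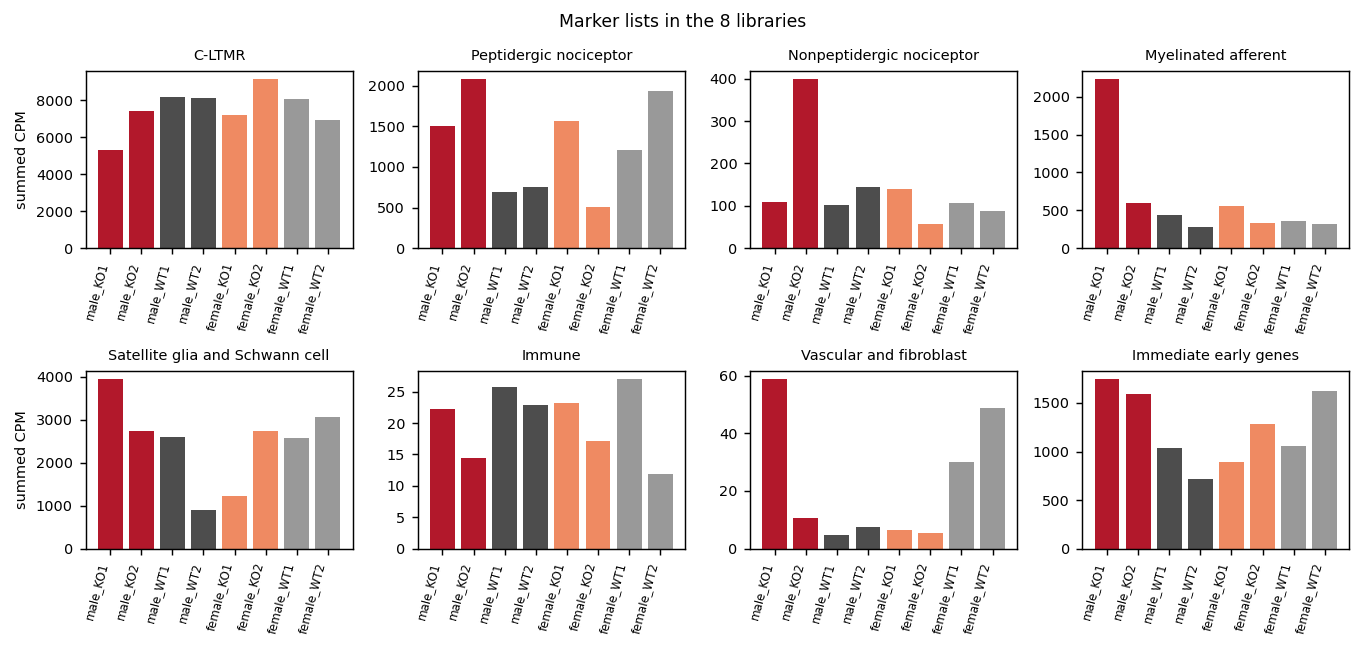
Summed CPM of each marker list in every library, with a linear axis of its own for each panel. The myelinated list reaches 2232 CPM in 1 male KO library and is at most 600.2 CPM in the other 7; the C-LTMR list stays between 5312 and 9134 CPM.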

How the data were processed

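Per the file headers, the deposited table holds whole-number read counts per gene (unit: count) from featureCounts 1.6.1 with the exons of release 97 of Ensembl's GRCm38 annotation, without strand and with reads over several genes counted in each. Sample file names in that header speak of uniquely aligned reads, so genes with near-identical copies are undercounted, and no source used here gives the aligner. Per the submitters' processing notes, DESeq2 1.14.1, bcl2fastq 2.17.1.14 and Subread 1.6.4 were used. In the authors' deposited comparison tables the columns are, by their header, log2 fold changes and their errors, a test statistic (a score) and p-values. Per the labels' protocols, cDNA was made with SMART-Seq v4 and amplified in 13 and, after Nextera XT tagmentation, 12 further cycles. With no molecular identifiers, limits from counts treat every read as a separate draw and leave out the spread between libraries.

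From the counts, CPM was computed with TMM-scaled library sizes and TPM with the exon lengths of the count table. Genes kept by filterByExpr, 22013 of 55573, were fitted in 4 groups over all 8 libraries in edgeR 4.0.16 under R 4.3.3 (quasi-likelihood F test, two-sided), with 4 residual degrees of freedom and a biological coefficient of variation of 76.6%. A standard error is the log2 fold change over the square root of its F statistic. The threshold was 0.05 after Benjamini-Hochberg adjustment across every tested gene. The code was tested on simulated data with a smaller spread than these libraries have, so that check does not measure the power of the test here. DESeq2 1.42.0, other filters and scalings, a replicate block, single sexes and leaving out each library were the alternatives; male to female ratios without single libraries were added after seeing the data. The 10 genes, the other lists and the markers were chosen with earlier results of these data known. Named from the other lists were the 3 highest and 3 lowest log2 fold changes in each sex and the 5 highest TPM, among genes with a mean of at least 5 CPM. Ddit3, whose symbol is shared by several identifiers, was left out of the list of 50.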

Additional observations from a re-analysis of the deposited data

Results flagged for a closer look

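Tubb3, the neuronal beta-tubulin, had a log2 fold change of KO over WT of 0.42 in males and -0.13 in females, and every library of a sex lay on the same side. It had 2148 and 2050 CPM in male KO libraries, against 1668 and 1464 CPM in male WT libraries, and 1414 and 1427 CPM in female KO libraries, against 1560 and 1555 CPM in female WT libraries. Basp1, a growth cone protein related in function to Gap43, had 0.89 in males and -0.39 in females. Its libraries held 135 and 108 CPM in male KO, against 92.3 and 38.6 CPM in male WT, and 51.6 and 32.4 CPM in female KO, against 55.6 and 54.3 CPM in female WT. The interaction, male minus female, was 0.56 (SE 0.19) for Tubb3 and 1.28 (SE 0.60) for Basp1, and neither was called by edgeR over all tested genes.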

How the results depend on the processing

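Counts of called genes depended on the tool. DESeq2 called 164 genes for KO against WT in males, 165 in females, 52 across both sexes, 217 for the difference between the sexes in the KO effect and 140 for males against females in WT, where edgeR called 1, 1, 1, 0 and 0. With only the 4 libraries of a sex, edgeR called 0 genes in males and 0 in females. For males against females in WT edgeR called 3 genes with no filter on low counts and 3 with a filter at a mean of 5 CPM, and between 0 and 1 as single libraries were left out, 1 of them without either female KO library. With the replicate number of the titles as a block, edgeR called 0 genes in females and 1 in males, 1 across both sexes, 0 for the difference between the sexes and 0 for males against females in WT. The labels do not say whether these numbers pair the samples, which were treated as unpaired. The correlation of replicate differences between groups lay between -0.102 and 0.109 over 22013 genes, and values this low cannot exclude a pairing. For the 10 genes the median log2 fold change of KO over WT in males ran between -0.18 and 1.59 as single libraries were left out, 1.59 without the higher male WT library for Sprr1a, and that in females between -0.44 and -0.13. Of 582 recomputed fold changes of the 10 genes, 557 moved by less than the spread between replicates, and all 25 that moved further did so on leaving out a library; 48 changed sign, 40 of them on leaving out a library. The cause was not tested. Depth limits Ecel1 and Anxa1 in females, where 3 counts correspond to 0.0421 to 0.0587 CPM.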

Other observations

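Genes with at most 10 counts in every female library and a male mean of at least 5 CPM were looked for after the values of Sprr1a, Ecel1 and Anxa1 had been seen. There were 9 of 22013 tested genes (0.0409%), and 3 of them were these. Ddx3y and Eif2s3y, both on chromosome Y, were even over the male libraries, at 16.4 to 25.7 CPM and 14.9 to 20.3 CPM. The others were not: Npy ran between 0.0308 and 113 CPM over the male libraries, Nts between 0.0314 and 51.3 CPM, Crh between 0 and 19.6 CPM and Cela1 between 0.283 and 17.5 CPM. Sprr1a ran between 2.37 and 136 CPM, Ecel1 between 2.37 and 34.5 CPM and Anxa1 between 0.339 and 20.5 CPM in the same 4 libraries, so all 3 were above the floor of 3 counts in each of them.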
